A study of Bos taurus with 60 samples.

Results

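Mammary tissue of heat-stressed (HT) and cooled (CL) dairy cows was compared at D7, a week after milking stopped. The samples were chosen by their day label alone, which took 12 of the 60 samples of the series, 6 HT and 6 CL. All were biopsies of multiparous Holstein cows, and each cow was also sampled 3 days before dry-off (D-3) and on D3, D14 and D25 after it. HT cows had shade only during the dry period, and CL cows had shade, fans and soakers. The cow is the replicate, and the cows are numbered 1 to 6 within each treatment in the order of deposit, so HT cow 2 and CL cow 2 are different animals. Treatments began at dry-off, so the D-3 biopsies were taken from still untreated cows. Each treatment was kept in a pen of its own, and pen and treatment cannot be told apart.

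When milking stops, the gland enters involution. Alveolar epithelial cells stop making milk, part of them die by apoptosis and autophagy, tight junctions open, the matrix is remodelled and immune cells enter. In dairy cows, which are usually pregnant at dry-off, involution overlaps with renewal of the epithelium, and the loss of secretory activity is slower and less complete than in rodents. Heat stress acts in many cells through heat shock factors, which raise chaperones.

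Total counts at D7 ranged from 21369890 to 26183990. Milk RNA was very uneven between cows. The casein genes CSN1S1 and CSN2 and the alpha-lactalbumin gene LALBA together took 0.0628% to 1.96% of the counts in CL cows, with a median of 0.259%. In HT cows they took 0.00669% (cow 3) to 14.5% (cow 2), with a median of 2.80%. HT cow 2 therefore stood apart, with a TMM normalization factor of 0.791 against 0.911 to 1.10 in the other 11 libraries. Many results are given with and without this cow, but not all, and a value given only with it may still rest on it. The keratin gene KRT19, a marker of luminal epithelium, was at 279 CPM or more in each of the 12 samples (CPM is the count scaled to the library's size and its TMM factor), so the labelled tissue has its defining marker. Of 33 gene groups drawn up for milk synthesis, vessels, proliferation, stress and cell types, 27 had a member that could be paired with a locus. Symbols were paired only for 3007 of the 14714 loci tested, those that the study had listed for changes over time, and they are no random sample of the genome.

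No locus reached an FDR of 0.05 at D7 by edgeR's quasi-likelihood test, and the smallest FDR was 0.959. An unadjusted p under 0.05 was found for 385 loci with higher and 287 with lower expression in HT, which is 2.62% and 1.95% of the loci tested. At the less stringent threshold of the study (an unadjusted p no higher than 0.005 and a log2 fold change of 0.5 or more in either direction), 32 loci were higher (0.217% of all) and 15 lower in HT (0.102%). Without TMM scaling, on library size alone, the split was 15 higher and 39 lower, and the median log2 fold change of all loci moved from -0.00 to -0.14. DESeq2 called 3 loci at an FDR of 0.05, and edgeR with tagwise dispersions called 5. The study, which used tagwise dispersions, reported more genes at D7 at its less stringent threshold than the main fit here, which used trended ones. Loci with a symbol leaned upwards: 130 of them (4.32%) were higher and 17 (0.565%) lower at an unadjusted p under 0.05, and 61.5% had a log2 fold change above 0 against 49.5% of all loci. All 6 HT cows lay above all 6 CL cows for 8 loci, and below them for another 8, each 0.0544% of the loci tested.

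The locus with the smallest p was ANGPT2, which encodes angiopoietin 2, an endothelial ligand that loosens vessels and prepares them for sprouting or regression. It ranged from 15.7 to 32.7 CPM in CL cows (median 20.1) and from 24.5 to 64.4 CPM in HT cows (median 49.1). Only CL cow 5 lay above the lowest HT cow, which was cow 4. The log2 fold change was 1.10 ± 0.23 (SE), a 2.15-fold difference, with an unadjusted p of 3.35e-04 by edgeR and 0.00433 by the two-sided exact permutation test over the cows, for which 0.00216 is the smallest p possible. Below, an exact p is from this permutation test on log2 CPM, and every p of a single locus is unadjusted. Of the 12 loci with a symbol past the less stringent threshold, 10 were refitted with each cow left out in turn, and GCAT and SLC31A2 were not. ANGPT2, FILIP1 and KIF25 stayed past it in all 12 of these fits, but they missed it in a fit of all 60 samples. For the others, the threshold was missed in 4 of the fits for CCL1, 6 for ROBO4, 7 for ADGRF5, BDH1 and SLC2A1 each, and 8 for EDIL3 and LOC786474 each, genes described below.

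Other genes of vessels or of the cytoskeleton past the less stringent threshold with higher values in HT were ROBO4, ADGRF5 and FILIP1. ROBO4, a receptor of endothelial cells that stabilizes vessels, ranged from 31.7 to 79.4 CPM in CL cows (median 54.4) and from 78.1 to 163 CPM in HT cows (median 92.2). Its groups overlapped only by CL cow 5, and its log2 fold change was 0.91 ± 0.25 (p = 0.00325 by edgeR, 0.00649 by the exact permutation test). ADGRF5, an adhesion receptor found on endothelium and some epithelia, was at a median of 52.5 CPM in CL and 87.6 CPM in HT, a log2 fold change of 0.64 ± 0.17 (p = 0.00258 by edgeR, exact p = 0.00866). CL cow 6, at 84.9 CPM, was the only cooled cow inside the HT range. Without HT cow 2 neither met the less stringent threshold, with log2 fold changes of 0.74 for ROBO4 and 0.61 for ADGRF5. FILIP1, which encodes a protein that binds the actin crosslinker filamin A, ranged from 18.0 to 27.7 CPM in CL and from 26.9 to 41.6 CPM in HT, with a log2 fold change of 0.61 ± 0.13 (p = 4.64e-04 by edgeR, exact p = 0.00433). On library size alone, FILIP1 and ADGRF5 missed the threshold.

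**Figure D1:**
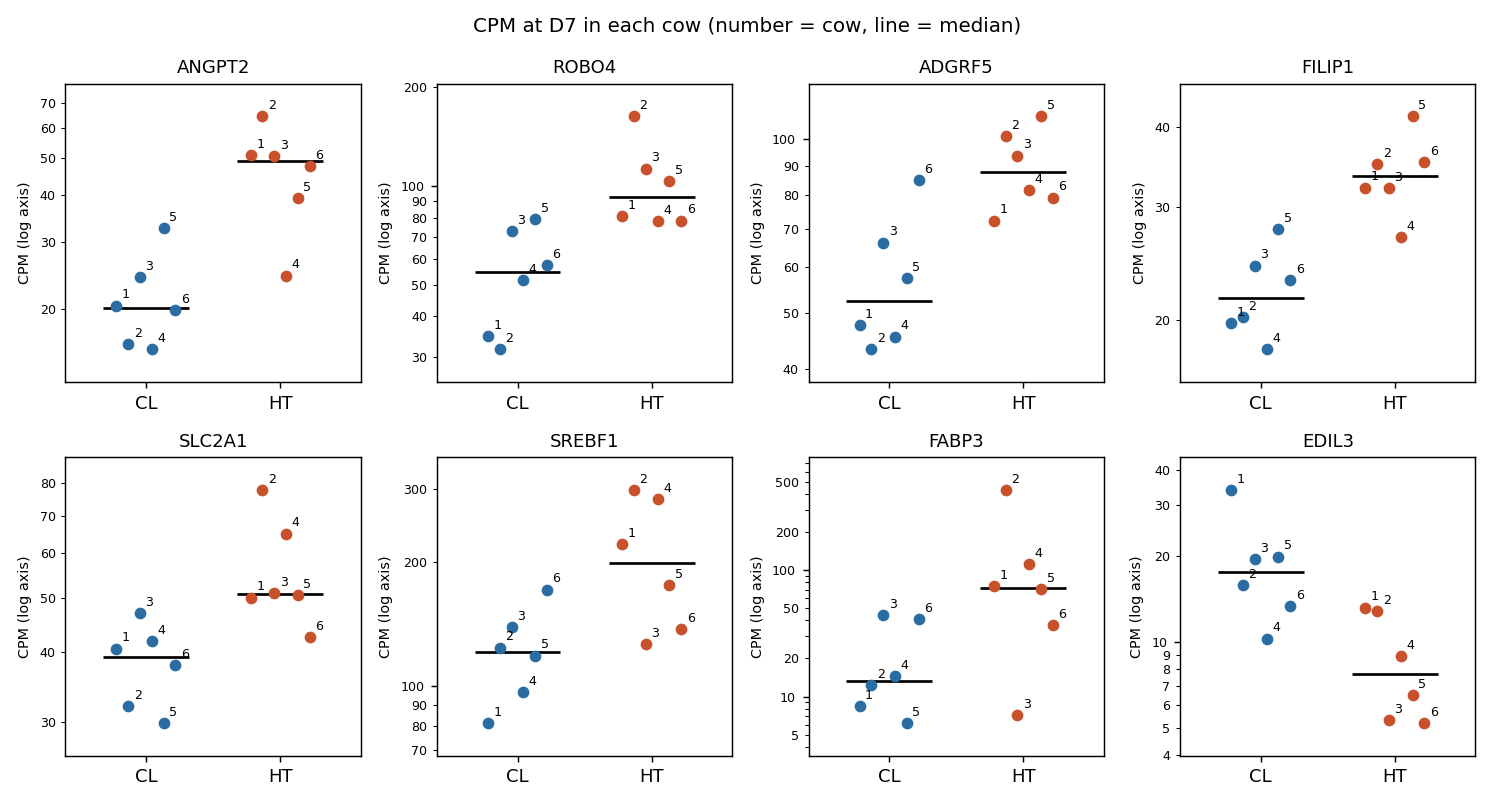
CPM after TMM scaling (log axis) of 8 genes at D7, with 1 point per cow, the cow's number beside it and a line at the group median. ANGPT2, ROBO4, ADGRF5, FILIP1 and SLC2A1 overlap by a single CL cow, FABP3 spreads from 7.13 to 431 CPM among HT cows, and EDIL3 is the gene of the 8 with a lower HT median.

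Among all angiogenic ligands and receptors that could be paired, 1 of 9 was past the less stringent threshold with higher expression in HT (0.217% of all loci) and 2 of 9 had an unadjusted p under 0.05 (2.62% of all loci and 4.32% of those with a symbol). All 9 had a log2 fold change above 0 after TMM scaling (6 of 9 on library size alone, where the median of all loci also fell), as did 61.5% of the loci with a symbol, and their median was 0.24. VEGFA, the main growth factor for vessels, ranged from 63.0 to 88.6 CPM in CL and from 81.2 to 99.6 CPM in HT (log2 fold change 0.25 ± 0.10, p = 0.0295 by edgeR, exact p = 0.0195). Every HT cow was above the CL median for VEGFA, and 2 CL cows were above the lowest HT cow. The VEGF receptors KDR and FLT1 differed by 0.24 ± 0.12 (exact p = 0.0823) and 0.25 ± 0.17 (exact p = 0.286), neither past the threshold. VEGFB, VEGFC and ANGPT1, the stabilizing counterpart of ANGPT2, had log2 fold changes of 0.08, 0.05 and 0.02. The median of the 9 was 0.10 without HT cow 1 and 0.28 without HT cow 3, and without HT cow 2 it was 0.23 with 6 of 9 above 0. The endothelial marker EMCN (endomucin) had a log2 fold change of 0.20 (exact p = 0.286). AGTR1, the receptor through which angiotensin II constricts vessels, was at a median of 2.12 CPM in CL and 3.92 CPM in HT (log2 fold change 0.90 ± 0.40, p = 0.045 by edgeR, exact p = 0.0844, and 0.70 without HT cow 2, not past an unadjusted p of 0.05), while the converting enzymes ACE and ECE1 had log2 fold changes of 0.44 (exact p = 0.309) and 0.21 (exact p = 0.283). In bulk tissue, more endothelial cells and more RNA per cell cannot be told apart.

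Milk protein genes spanned orders of magnitude within both groups. CSN2, which encodes beta-casein, ranged from 309 to 11288 CPM in CL (median 1258) and from 33.9 to 89669 CPM in HT (median 18645). For CSN1S1, alpha-s1-casein, the ranges were 177 to 7769 CPM in CL (median 1161) and 26.4 to 80475 CPM in HT (median 8837). LALBA, the regulatory subunit of lactose synthase, ranged from 2.62 to 1141 CPM in CL (median 14.9) and from 2.10 to 13493 CPM in HT (median 815). In all 3, HT cow 2 was the highest and HT cow 3 the lowest of the 12 cows, so that the HT range enclosed the CL range. The log2 fold changes were 2.73 ± 1.28 for CSN2 (p = 0.0524), 2.73 ± 1.34 for CSN1S1 (p = 0.0631) and 3.51 ± 1.81 for LALBA (p = 0.0743), and the exact permutation p were 0.227, 0.327 and 0.203. Without HT cow 2 the values were 1.86, 1.39 and 1.52, none with an unadjusted p under 0.05. All 3 had an unadjusted p under 0.05 without HT cow 3, without CL cow 6 (where LALBA was at 5.30), by DESeq2 and with tagwise dispersions, and 2 of 3 did without CL cow 3.

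Of 15 genes for the synthesis of fatty acids and triglycerides, none passed the less stringent threshold, 6 had an unadjusted p under 0.05 with higher values in HT (against 2.62% of all loci and 4.32% of those with a symbol) and all 15 had a log2 fold change above 0 (14 of 15 on library size alone), with a median of 0.81 against -0.00 over all loci. SREBF1, the transcription factor that drives lipogenic genes, ranged from 81.3 to 171 CPM in CL (median 121) and from 126 to 298 CPM in HT (median 198). Only CL cows 3 and 6 were above the lowest HT cow, and the log2 fold change was 0.76 ± 0.24 (p = 0.00708 by edgeR, 0.0195 by the exact permutation test). SCD, the desaturase that makes oleate, was at a median of 21.6 CPM in CL and 63.7 CPM in HT, with HT cows between 4.49 and 262 CPM (log2 fold change 1.84 ± 0.69, p = 0.0196 by edgeR, exact p = 0.195). INSIG1, which holds sterol regulatory proteins in the endoplasmic reticulum, and the desaturase FADS1 had log2 fold changes of 1.03 ± 0.42 (p = 0.0302 by edgeR, exact p = 0.188) and 0.89 ± 0.33 (p = 0.0177 by edgeR, exact p = 0.0736). SCD was at 1.06 and INSIG1 at 0.57 without HT cow 2, neither past an unadjusted p of 0.05, and FADS1 was at 0.72. Fatty acid synthase itself, FASN, had a wide spread and a log2 fold change of 0.97 that did not pass (exact p = 0.394). Without HT cow 2 the median of the group was 0.57 and 2 of 15 had an unadjusted p under 0.05, with all 15 still above 0. It was 9 of 15 without CL cow 6, 3 of 15 without CL cow 1 and 2 of 15 in the fit of all 60 samples.

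The 7 genes of lipid uptake and of the milk fat globule had 3 of 7 higher at an unadjusted p under 0.05 (against 2.62% of all loci and 4.32% of those with a symbol), all 7 above 0 and a median of 1.13. The count was 5 of 7 without HT cow 3, 6 of 7 without CL cow 6, 2 of 7 without HT cow 2, HT cow 5, CL cow 1 or CL cow 2, and 1 of 7 in the fit of all 60 samples. FABP3, the fatty acid binding protein of the lactating gland, ranged from 6.17 to 44.3 CPM in CL (median 13.4) and from 7.13 to 431 CPM in HT (median 72.8). HT cow 3 was below the CL median and the other HT cows were above it, and the log2 fold change was 2.53 ± 0.81 (p = 0.00802 by edgeR, 0.0649 by the exact permutation test). It was 1.52 without HT cow 2. XDH, xanthine dehydrogenase, which also coats the fat globule, was at a median of 955 CPM in CL and 2615 CPM in HT (1.11 ± 0.43, p = 0.0219 by edgeR, exact p = 0.0649). For LPL, lipoprotein lipase, the highest HT cow (cow 2, 730 CPM) decided the value: the log2 fold change was 1.49 ± 0.59 (p = 0.0252 by edgeR, exact p = 0.0758) with it and 0.39, no longer past an unadjusted p of 0.05, without it. The transporter ABCG2, which carries compounds into milk, had a log2 fold change of 1.27 ± 0.62 (exact p = 0.0779), and 2.01, past the less stringent threshold, without CL cow 6. The median of the 7 was 0.79 without HT cow 2 and 1.74 without CL cow 6.

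All 14 paired genes of cholesterol synthesis were at or above 0 after TMM scaling (6 of 14 on library size alone), but the median was 0.08, and 2 of 14 had an unadjusted p under 0.05 with higher values in HT (against 2.62% of all loci and 4.32% of those with a symbol), and none did in the fit of all 60 samples. LSS, lanosterol synthase, which closes the sterol rings, was at 21.0 to 34.8 CPM in CL (median 29.8) and 27.9 to 57.4 CPM in HT (median 36.4), a log2 fold change of 0.43 ± 0.18 (p = 0.0333 by edgeR, exact p = 0.0563), and without HT cow 2 it was 0.30, not past an unadjusted p of 0.05. HMGCS1, an early enzyme of the pathway, had a log2 fold change of 0.00. In glucose use and lactose synthesis, 1 of 8 genes was past the less stringent threshold (0.217% of all loci). This was SLC2A1, the glucose transporter GLUT1, at 29.9 to 46.9 CPM in CL (median 39.2) and 42.5 to 77.8 CPM in HT (median 50.7). Its groups overlapped by CL cow 3 alone, and the log2 fold change was 0.56 ± 0.16 (p = 0.00371 by edgeR, 0.00433 by the exact permutation test). Without HT cow 2 it was 0.45, and on library size alone 0.40, both short of the threshold. B4GALT1, the catalytic subunit of lactose synthase, and UGP2, which makes UDP-glucose, had log2 fold changes of 0.36 (exact p = 0.26) and 0.42 (exact p = 0.255).

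**Figure D2:**
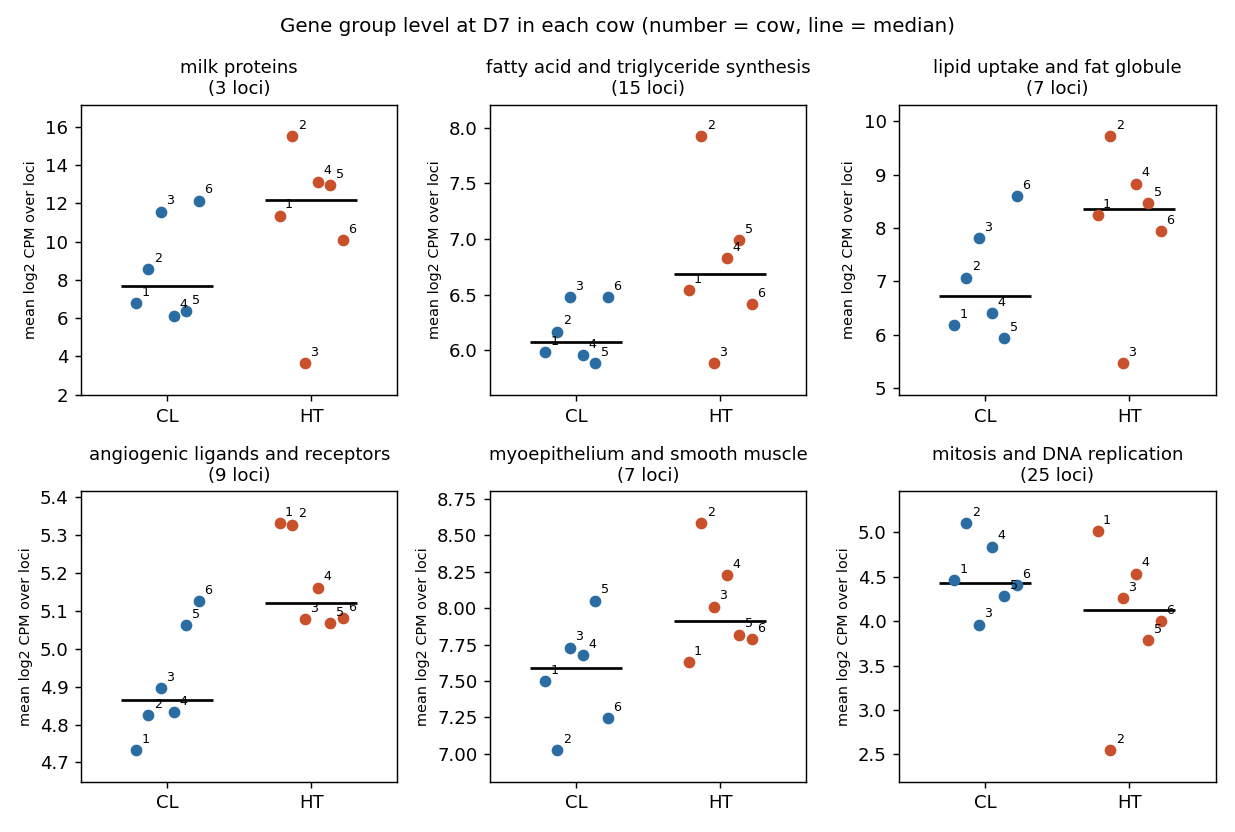
Mean log2 CPM over the paired loci of 6 gene groups at D7, with 1 point per cow, the cow's number beside it and a line at the group median. HT cow 2 is highest for milk proteins and both lipid groups and lowest for mitosis, and HT cow 3 is lowest for milk proteins and both lipid groups.

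Proliferation genes had lower values in HT without passing any threshold. Of 25 genes of mitosis and DNA replication, 24 had a log2 fold change below 0, with a median of -0.40. Of all loci 49.5%, and of those with a symbol 61.5%, were above 0. None of the 25 had an unadjusted p under 0.05, where 1.95% of all loci and 0.565% of those with a symbol were lower. TOP2A, topoisomerase II alpha, ranged from 74.1 to 192 CPM in CL (median 103) and from 23.0 to 154 CPM in HT (median 79.2), and its log2 fold change was -0.49 ± 0.35 (exact p = 0.173). MKI67, the Ki-67 antigen, ranged from 79.1 to 162 CPM in CL and from 24.7 to 171 CPM in HT (-0.39, exact p = 0.238). The highest and the lowest cow for MKI67 were thus both heat-stressed. ASPM and NUSAP1, which organize the spindle, and CKS2, a partner of cyclin-dependent kinases, had log2 fold changes of -0.54 (exact p = 0.16), -0.44 (exact p = 0.141) and -0.43 (exact p = 0.154). The exception was MCM4, of the replicative helicase, at 0.01. HT cow 2, the cow with the most milk RNA, had the lowest level of the group. Without it the median was -0.18 with 22 of 25 below 0. Without HT cow 1, the cow with the highest MKI67, the median was -0.65 and 5 of 25 were lower at an unadjusted p under 0.05.

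**Figure D3:**
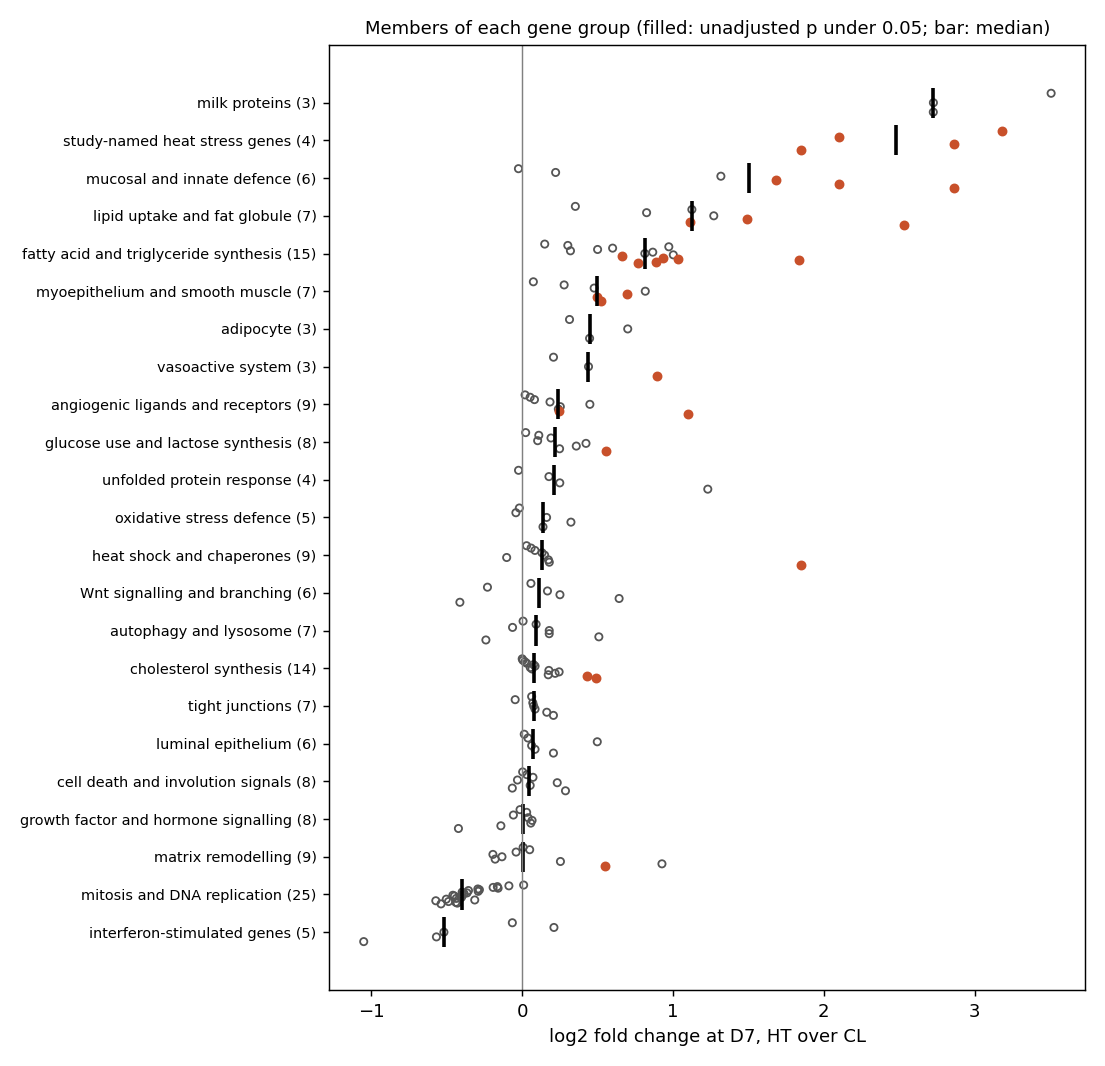
Log2 fold change at D7 (HT over CL, horizontal axis) of each member of the gene groups with at least 3 paired loci, the number of loci in brackets. Filled points have an unadjusted p under 0.05 and bars are medians. Filled points lie to the right of 0 only, and the 25 mitosis genes lie left of 0 except MCM4.

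The stress genes that could be paired showed few differences. Of 31 symbols listed for heat shock proteins and chaperones, 9 were paired. HSPA1A, HSPA8, HSP90AA1, HSPH1 and DNAJB1 were not, so these could not be compared. Of 9 loci of heat shock proteins and chaperones, 1 had an unadjusted p under 0.05 (against 2.62% of all loci), and 8 were above 0 after TMM scaling (4 on library size alone), with a median of 0.13. The exception in size was DNAJC12, a member of the HSP40 family, at 8.23 to 62.1 CPM in CL (median 17.6) and 27.0 to 236 CPM in HT (median 39.8). Its groups overlapped by CL cow 3 alone (log2 fold change 1.85 ± 0.64, p = 0.0123 by edgeR, 0.0325 by the exact permutation test), and without HT cow 2 it was 1.18. The small heat shock protein gene HSPB1, the mitochondrial chaperonin HSPD1 and the HSP40 gene DNAJA1 had log2 fold changes of 0.13 (exact p = 0.5), 0.09 (exact p = 0.671) and 0.03 (exact p = 0.816). In the unfolded protein response, CHAC1, which degrades glutathione, was at most 0.713 CPM in CL and up to 3.23 CPM in HT cow 2 (1.23 ± 0.57, exact p = 0.126), while ATF4 (0.18, exact p = 0.18) and DDIT3 (-0.02, exact p = 0.833) differed little. Without HT cow 2, CHAC1 was at 0.56. Genes of oxidative stress defence had no member with an unadjusted p under 0.05 (2.62% of all loci were higher and 1.95% lower). Their median was 0.14 over 5 loci.

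In the processes that define involution, few genes differed. None of 8 genes of cell death and involution signals had an unadjusted p under 0.05 (2.62% of all loci were higher and 1.95% lower). Their median was 0.04. STAT3, the transcription factor that starts cell death in the involuting gland, had a log2 fold change of 0.00 (exact p = 0.994), and IGFBP5, which blocks survival by IGF1, one of 0.03 (exact p = 0.758). The 7 genes of autophagy and lysosomes had a median of 0.09 and a range from -0.24 (EPG5, exact p = 0.0844) to 0.51 (WIPI1, exact p = 0.143). Growth factor and hormone signalling had a median of 0.01 over 8 genes, from IGFBP2 at -0.42 (exact p = 0.309) to IGF1 at 0.07 (exact p = 0.591), and Wnt signalling and branching one of 0.11 over 6, with WNT5B at -0.41 (exact p = 0.134). On library size alone, all 8 growth factor genes were below 0. Tight junction genes had a median of 0.08 over 7, led by CLDN4 at 0.21 (exact p = 0.0714) and F11R at 0.16 (exact p = 0.113). Of 9 genes of matrix remodelling, only 1 had an unadjusted p under 0.05, with higher values in HT (against 2.62% of all loci and 4.32% of those with a symbol). This was TIMP3, an inhibitor of matrix metalloproteinases. It was at a median of 130 CPM in CL and 190 CPM in HT (0.55 ± 0.18, p = 0.00944 by edgeR, exact p = 0.0238), and LOXL4, a collagen crosslinker, differed by 0.93 ± 0.52 (exact p = 0.0887).

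Of 6 loci of mucosal and innate defence, 3 were higher in HT at an unadjusted p under 0.05 (against 2.62% of all loci and 4.32% of those with a symbol), and the median was 1.5. The count was 1 of 6 without HT cow 2 and 1 of 6 in the fit of all 60 samples. The same HT cows already had a median of 0.59 for this group at D-3, before treatment. At that day 5 of 6 loci were above 0, and 1 was higher at an unadjusted p under 0.05 (1.12% of all loci). For the change of the HT to CL difference from D-3 to D7, tested with the cow as a block, 0 of 6 passed that p. FCAMR, a receptor for IgA and IgM, ranged from 2.47 to 31.0 CPM in CL (median 6.72) and from 2.82 to 233 CPM in HT (median 33.5). HT cows 5 and 6 carried the highest values, and the log2 fold change was 2.86 ± 0.93 (p = 0.00856 by edgeR, 0.0628 by the exact permutation test). Complement C3, the central component of the cascade, was also highest in HT cows 5 and 6, at 8506 and 7183 CPM (1.69 ± 0.75, p = 0.0412 by edgeR, exact p = 0.18), and it was not past an unadjusted p of 0.05 without any 1 of 8 cows, HT cow 2 among them. GP2, a membrane glycoprotein that binds bacteria, was highest in HT cow 2 at 334 CPM (2.10 ± 0.78, p = 0.0186 by edgeR, exact p = 0.247), and without that cow it was 1.18, not past an unadjusted p of 0.05. SLPI, a protease inhibitor of mucosal secretions, was at most 1.17 CPM in every cow (exact p = 0.223), and LBP, which binds bacterial endotoxin, differed by -0.02. The interferon-stimulated genes had a median of -0.52 over 5 loci, which rested on CL cow 3. ISG15, a ubiquitin-like modifier, was at 46.2 CPM in that cow and at most 5.16 CPM in the other CL cows (-1.05 ± 0.73, exact p = 0.855), and without it the median of the group was 0.38 and the log2 fold change of ISG15 was 0.49.

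Few markers of immune cells could be paired. The macrophage markers AIF1 and MSR1 had log2 fold changes of -0.10 and 0.02, and no marker of T, NK, B or plasma cells, neutrophils, red blood cells or skin and no MHC class II gene was paired, so that these could not be compared. Of 7 myoepithelial and smooth muscle markers, 3 were higher in HT at an unadjusted p under 0.05 (against 2.62% of all loci and 4.32% of those with a symbol), all 7 were above 0 (6 of 7 on library size alone), and the median was 0.50. ACTA2, smooth muscle actin, ranged from 264 to 462 CPM in CL (median 372) and from 410 to 689 CPM in HT (median 519). CL cows 4 and 5 were inside the HT range, and the log2 fold change was 0.52 ± 0.17 (p = 0.00959 by edgeR, 0.0195 by the exact permutation test). TAGLN, transgelin, and KRT17, a basal keratin, differed by 0.69 ± 0.29 (p = 0.0309 by edgeR, exact p = 0.0563) and 0.50 ± 0.19 (p = 0.0231 by edgeR, exact p = 0.0411), and CNN1, calponin, by 0.82 ± 0.40 (exact p = 0.119). CNN1 was at 0.48 without HT cow 2. The reads of KRT17 cannot be divided between 2 joined ENSEMBL genes. Without HT cow 2 or without CL cow 2, 1 of the 7 had an unadjusted p under 0.05, and on library size alone or in the fit of all 60 samples none did. ACTA2, TAGLN and CNN1 belong both to myoepithelium and to the muscle of vessels, unlike the basal keratins KRT5 and KRT17. The summed level of the 7, which mixes both kinds, was 1281 to 2352 CPM in CL and 1921 to 3370 CPM in HT. Luminal markers had a median of 0.07 over 6 loci, with KRT19 at 0.50 ± 0.23 (exact p = 0.0563). The adipocyte markers PNPLA2 (0.45, exact p = 0.139), FABP4 (0.70, exact p = 0.203) and ADIPOQ (0.31, exact p = 0.457) were above 0, with a summed level of 45.1 to 236 CPM in CL and 104 to 284 CPM in HT. PNPLA2 was at 0.25 without HT cow 2. FABP4 and PNPLA2 also serve lipid handling, and the part of fat tissue in the lipid genes was not tested. The skeletal muscle marker MYH2 was at most 0.252 CPM in CL and 1.26 CPM in HT (2.18 ± 0.88, p = 0.0283 by edgeR, exact p = 0.0714), and DCN, the fibroblast marker decorin, differed by 0.04 (exact p = 0.623).

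Of the loci past the less stringent threshold, 12 had a symbol, 11 of them higher in HT (0.366% of the loci with a symbol) and 1 lower (0.0333%). Beside those above, KIF25, a kinesin, was at a median of 4.12 CPM in CL, and HT cows ranged from 5.56 to 21.4 CPM (1.42 ± 0.31, p = 5.45e-04 by edgeR, exact p = 0.00433), with CL cow 6 alone inside the HT range. CCL1, a chemokine, was low, at 0.0414 to 0.390 CPM in CL and 0.463 to 1.73 CPM in HT. All 6 HT cows were above all 6 CL cows for CCL1 (1.94 ± 0.52, p = 0.00247 by edgeR, 0.00216 by the exact permutation test). It is 1 of the 8 loci separated in this direction (0.0544% of those tested). BDH1, which interconverts ketone bodies, was at a median of 2.51 CPM in CL and 6.08 CPM in HT, and HT cows 2 and 4 were highest at 20.1 and 16.5 CPM (1.72 ± 0.47, p = 0.00275 by edgeR, exact p = 0.013). LOC786474, described as a patatin-like phospholipase of the PNPLA3 type and joined to a second ENSEMBL gene in the files, ranged from 3.56 to 32.4 CPM in CL and from 5.10 to 334 CPM in HT (3.18 ± 0.94, p = 0.00479 by edgeR, exact p = 0.0346), and without HT cow 2 it was 1.96, short of the threshold. It is 1 of 4 paired genes that the study had named for this comparison, with FCAMR, DNAJC12 and GP2. All 4 had an unadjusted p under 0.05, but they were chosen on these same samples and are not independent evidence. GCAT, of glycine and threonine metabolism, and SLC31A2, a copper transporter, were also past the threshold (log2 fold changes 1.26 and 1.40) and are named here after their values were seen. ILK, integrin-linked kinase, overlapped by CL cow 3 alone but the difference was small, at 71.2 to 79.0 CPM in CL and 78.8 to 103 CPM in HT (0.30 ± 0.08, p = 0.00358 by edgeR, exact p = 0.00433).

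A single locus with a symbol was past the threshold with lower expression in HT. EDIL3, a matrix protein that binds integrins of endothelial cells, ranged from 10.3 to 34.0 CPM in CL (median 17.6) and from 5.19 to 13.2 CPM in HT (median 7.72). Every HT cow was below the CL median, and the log2 fold change was -1.12 ± 0.32 (p = 0.00393 by edgeR, 0.0108 by the exact permutation test). EDIL3 was already lower in the same HT cows at D-3, before treatment, by -1.43, past the less stringent threshold at that day too. NDUFAB1, the mitochondrial acyl carrier protein, separated the groups completely, at 25.0 to 27.6 CPM in CL and 20.7 to 23.8 CPM in HT, but by only -0.24 ± 0.08 (p = 0.0123 by edgeR, exact p = 0.00216). It is 1 of the 8 loci (0.0544% of those tested) where all HT cows lay below all CL cows. DYRK2, a kinase, TSPAN5, a tetraspanin, HEPACAM, a cell adhesion molecule, CHST2, a sulfotransferase, and FGF11 followed, with log2 fold changes of -0.27, -0.32, -0.63, -0.35 and -0.82 and p between 0.0231 and 0.0341. The value for KL, klotho, of -3.27 ± 1.43 (p = 0.0389 by edgeR, exact p = 0.957) came from CL cow 6 at 32.6 CPM. The HT cows had 0.187 to 1.02 CPM, and without CL cow 6 the log2 fold change was 1.28.

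The D-3 samples show how far the same cows differed before treatment. At D-3, 8 loci passed the less stringent threshold (0.0544% of all) and none reached an FDR of 0.05, where 165 loci (1.12%) were higher and 133 (0.904%) lower at an unadjusted p under 0.05. Of the 32 loci higher at D7, 16 had a log2 fold change above 0 at D-3, and of the 15 lower at D7, 10 were below 0. ANGPT2 differed by -0.26 at D-3 and ROBO4 by -0.06, neither with an unadjusted p under 0.05. The change of the HT to CL difference from D-3 to D7, tested with the cow as a block, was 1.24 ± 0.41 for ANGPT2 and 0.74 ± 0.26 for FILIP1, both with an unadjusted p under 0.05, and 0.83 ± 0.40 for ROBO4, which was not. No locus passed an FDR of 0.05 in this test or the less stringent threshold, and 91 loci (0.618%) had an unadjusted p under 0.05 upwards and 50 (0.34%) downwards. The lipid genes had large standard errors here: the change was 0.28 ± 0.66 for SREBF1 and 2.24 ± 4.08 for FABP3. Against D3, 2 loci (0.0136%) passed the less stringent threshold and none an FDR of 0.05.

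Fatty acid and triglyceride synthesis had a median of -0.05 before dry-off (D-3), then 0.11 (D3), 0.81 (D7), 0.29 (D14) and -0.00 (D25). The angiogenic genes had medians of -0.07, 0.10, 0.24, -0.28 and -0.03 at these time points, and mitosis 0.36, -0.18, -0.40, 0.20 and 0.46. At D25, all 25 mitosis genes were above 0 (49.5% of all loci), the reverse of 24 below 0 at D7. Myoepithelial and smooth muscle markers had a median above 0 at each of the 5 time points, with 0.50 at D7 and 0.55 at D14. These time points share cows, and differences between them were tested only for D7 against D-3 and D3. Against D-3, none of the 15 genes of fatty acid and triglyceride synthesis, the 7 of lipid uptake, the 25 of mitosis and the 7 smooth muscle markers had an unadjusted p under 0.05 in that test, and against D3 only 1 of the 15 did. Of the 9 angiogenic genes, 1 was past it upwards against D-3 (0.618% of all loci) and 2 against D3. The share of all loci at this p against D3 is not reported here, so the counts against D3 have no yardstick.

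**Figure D4:**
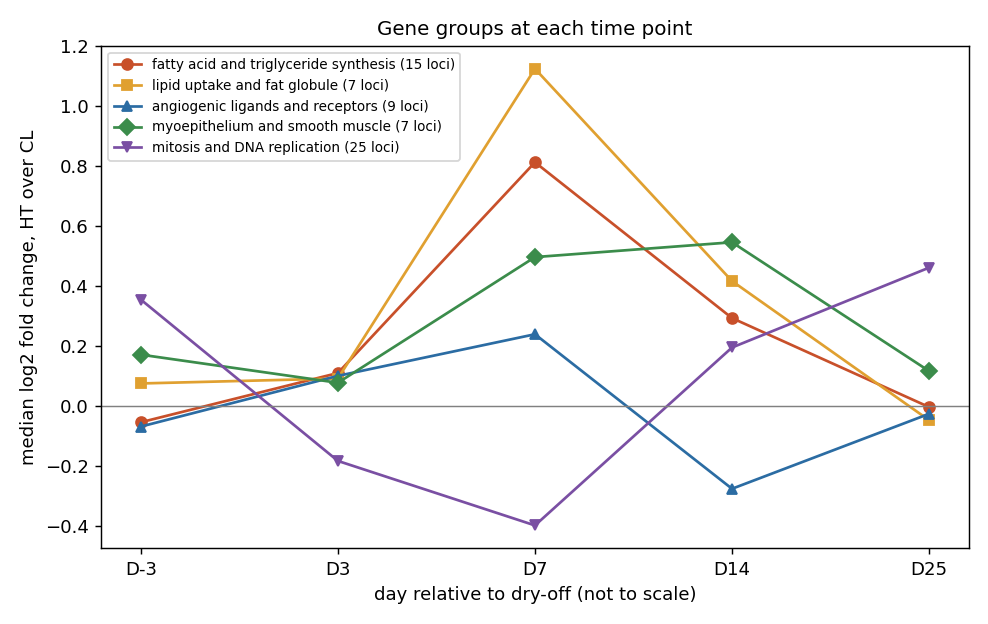
Median log2 fold change (HT over CL, vertical axis) of 5 gene groups at the 5 time points, each from its own 12 samples. Both lipid groups peak at D7 with 0.81 and 1.13, and mitosis has its lowest value there, -0.40.

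Most of the milk and lipid genes were lower at D3 than at D-3, and this change was examined over all loci, in a grouping chosen after seeing the data. A separate fit of D3 against D-3 in all 12 cows, with the cow as a block, found 851 loci lower and 798 higher at D3 at an FDR of 0.05. At D7, 76.1% of the 851 were higher in HT than in CL against 49.5% of all loci, 10.3% were higher and 0.235% lower at an unadjusted p under 0.05, and their median log2 fold change was 0.15. Among the 798 loci that rose after dry-off, 42.9% were higher in HT, and the median was -0.03. The 851 included all 3 milk protein genes, 9 of 15 of fatty acid and triglyceride synthesis, 6 of 7 of lipid uptake, 4 of 9 angiogenic genes and 3 of 14 of cholesterol synthesis, and none of the 25 mitosis genes. They also held 10 of the 32 loci higher and 1 of the 15 lower in HT past the less stringent threshold at D7. Among these were ANGPT2, ROBO4, FILIP1, KIF25 and SLC2A1, and EDIL3, which was lower in HT. ADGRF5 was not in the 851. Among the 3007 loci with a symbol, which the study had listed for changes over time, 646 were in the 851. At D-3 itself, 35.3% of the 851 and 78.4% of the 798 were higher in HT, with medians of -0.08 and 0.18. The D-3 and D3 samples come from the same cows as the D7 samples. Without HT cow 2 the median at D7 was 0.12, with 42 in place of 88 loci higher at an unadjusted p under 0.05 (52 without CL cow 1, 54 without CL cow 4, 149 without CL cow 6 and 144 without HT cow 3), and leaving out any cow it lay between 0.10 (HT cow 4) and 0.21 (CL cow 6). On library size alone it was 0.00, with all loci at -0.14.

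**Figure D5:**
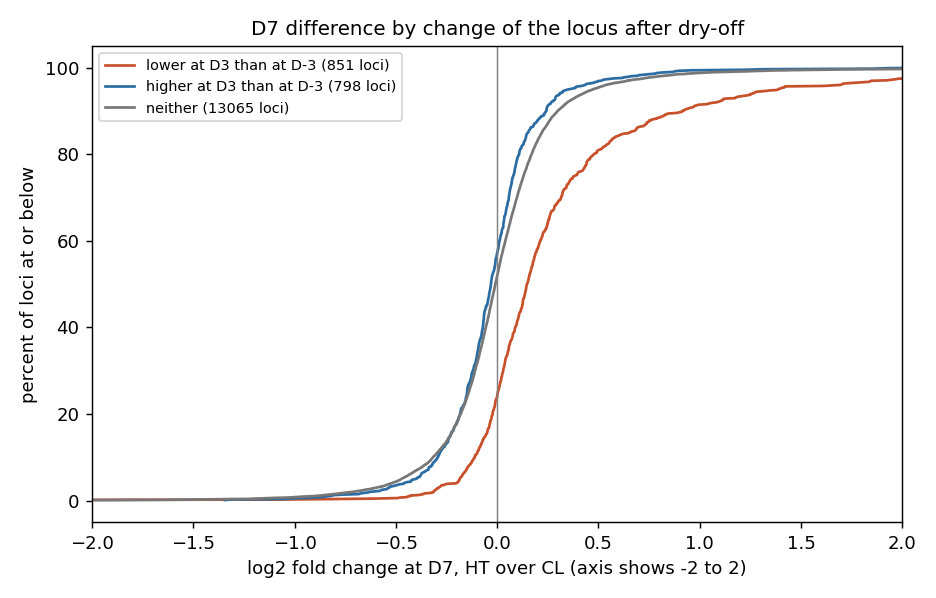
Cumulative share of loci (vertical axis, percent) by log2 fold change at D7, HT over CL, for loci lower at D3 than at D-3 (851), higher (798) or neither (13065). The curve of the 851 loci lies to the right of the others, with a median of 0.15.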

How the data were processed

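The authors deposited whole-number counts of uniquely mapped reads per locus, without normalization, from poly(A) libraries. They trimmed reads with Trim Galore 0.4.1, mapped them with TopHat 2.0.13, built loci with Cufflinks 2.2.1 and ENSEMBL genes and counted with htseq-count. The methods name bosTau7 and the submitters' processing notes UMD3.1, and no coordinates are used here. A set of 742 of the 25223 loci joins several ENSEMBL genes. Library preparation did not mark the strand, so antisense genes cannot be separated.

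The tested set of 14714 loci reached 1 CPM in 6 or more of the 60 libraries. HT and CL were compared in the 12 D7 samples with edgeR 4.0.16 (R 4.3.3), by TMM scaling, trended dispersions and the quasi-likelihood F-test with Benjamini-Hochberg adjustment. Log2 fold changes are given with standard errors, and p-values are unadjusted unless called FDR. At every named locus the FDR was 0.959 or more. Two-sided exact permutation tests of single genes used log2 CPM (prior count 2). The treatment by day term was fitted with the cow as a block, since same-numbered samples come from the same animal. Deviations from the mean of the treatment at each day had a mean correlation of 0.213 (-0.225 to 0.59) between D-3 and D7 of the same cow. For different cows of the same treatment it was -0.0427. The centring itself ties this value to the first, so it is no independent baseline. D7 libraries were checked for duplicates, and none were found. Scripts were tested on simulated data. Python 3.11.15 and matplotlib 3.10.9 were used for figures.

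Members and gene lists were chosen with earlier results of these data known. Named genes were the 8 higher and the 8 lower loci with a symbol and the smallest p, up to 4 members per list with the smallest p, all milk protein genes and the genes the study named for heat stress; other list members were added after their values were seen, as examples or ends of a range. Symbols came from identifier columns of the study's Supplementary Tables, held here in part. They pair 3033 loci. No sequence or promoter was analysed here. Some list members are not reported here. Alternatives were RLE factors, library size only, TMM without milk protein genes, other filters, DESeq2 1.42.0, tagwise dispersions, the newer quasi-likelihood method, a fit of all 60 samples, and each cow left out in turn.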

Additional observations from a re-analysis of the deposited data

Results flagged for a closer look

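In 12 of 188 groups of 6 cows, a single cow lay far from the other 5, with a gap to its nearest neighbour, as a share of the group's range in log2 CPM, above Dixon's 95% critical value. Chance alone flags about 1 group in 20. HT cow 3 had a gap of 0.721 as the lowest for CSN2, of 0.659 for B4GALT1 and of 0.683 for the mean level of glucose use and lactose synthesis. HT cow 2 had a gap of 0.797 as the highest for LPL and of 0.626 as the lowest for ASPM. CL cow 3 had gaps of 0.687 as the highest for ISG15 and 0.712 for the mean of the interferon-stimulated genes, of 0.754 for LOC786474 and 0.79 for the mean of the 4 genes the study named, and of 0.657 as the lowest for WNT5B. CL cow 6 had a gap of 0.734 as the highest for KL. HT cow 4 had a gap of 0.681 as the lowest for the mean of growth factor and hormone signalling. From D-3 to D7, all HT cows and all CL cows moved in opposite directions at 1 of the 14714 loci, which has no symbol here.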

How the results depend on the processing

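The counts of loci moved with the test, and some medians of gene groups near 0 changed sign on library size alone. Examples were cholesterol synthesis (0.08 to -0.08), tight junctions (0.08 to -0.07) and luminal markers (0.07 to -0.07). Fatty acid and triglyceride synthesis (0.62) and lipid uptake (0.95) stayed above 0 there. DESeq2 called 3 loci at an FDR of 0.05 and 80 higher and 36 lower at the less stringent threshold, tagwise dispersions 5, 114 and 44, and a fit of all 60 samples 8 higher and 4 lower at that threshold. On library size alone these were 15 higher and 39 lower, with a median of 0.10 for the angiogenic genes and -0.14 for growth factor and hormone signalling, and 5 loci at D-3. Leaving out each cow gave no locus at an FDR of 0.05, 12 (without CL cow 1) to 96 (without CL cow 3) higher and 4 (without HT cow 5) to 26 (without CL cow 3) lower loci at the less stringent threshold, 2 to 27 at D-3, and medians from -0.71 to 0.38 for interferon-stimulated genes. KL ranged from -3.53 to 1.28 and ISG15 from -1.38 to 0.49, reversed without CL cow 6 and CL cow 3. Of the named genes, 12 values lost and 17 gained the less stringent threshold over the other settings against 569 that did neither. The causes were not tested. At these depths counting error weighs most on loci near 1 CPM or lower, such as CCL1 and MYH2. A filter on the D7 samples left no skeletal muscle marker.

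HT and CL cows are different animals, so the D7 comparison itself has no pairing. In the treatment by day term, paired by cow, leaving out the replicate block gave 3 loci in place of 0 past the less stringent threshold against D-3 and 1 in place of 2 against D3, and library size alone with the block gave 0 and 1. Leaving out each cow gave 0 to 12 against D-3 and 1 to 22 against D3, and no fit gave a locus at an FDR of 0.05.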
